A study of Bubalus bubalis with 8 samples.

Results

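The non-collagen glycoproteins and proteoglycans of the extracellular matrix were followed in buffalo mammary epithelial cells (MECs) after heat stress, through FN1, SPARC, THBS1, TNC, LUM, DCN, BGN and FBN1. These 8 genes, of the 24839 gene names on the array, were chosen by name, and every probe carrying a name was taken. They had 44 of the 43653 probes, 5 of which lay in a rectangle of spots that read dark on the control array and were left out. The other 39 probes were 13 of FN1, 7 of DCN, 5 of THBS1, 5 of SPARC, 3 of TNC, 3 of BGN, 2 of LUM and 1 of FBN1. RNA came from primary MECs at passage 10, grown from the udder of a single buffalo on collagen-treated plates. The unstressed cells (CTR) were kept at 37 °C, and the heat stressed cells were held at 42 °C for 1 hour and harvested 30 min, 2 hours, 4 hours, 8 hours, 12 hours, 16 hours or 24 hours later. Each of these 8 conditions was hybridised to 1 bovine array with 1 colour (Cy3), so that no difference could be checked against replicates or given a p-value.

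Epithelial cells lie on and within a matrix of collagens, glycoproteins and proteoglycans. Fibronectin (FN1) assembles into fibrils through integrins on the cell surface, thrombospondin 1 (THBS1), tenascin C (TNC) and SPARC are matricellular proteins that change how cells attach, and fibrillin 1 (FBN1) builds microfibrils. Decorin (DCN), biglycan (BGN) and lumican (LUM) are small leucine-rich proteoglycans that bind collagen fibrils, and in the mammary gland decorin and lumican are known mainly as products of stromal fibroblasts.

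The 7 probes below carry the main contrasts of the results, namely FN1 and THBS1 probes that were lower than CTR, DCN probes that were bright at 16 hours, and a BGN probe that went against a brighter one (A_73_104688). Each is the 60-base probe as designed on the bovine genome (build Btau_3.1, positions from the array file), whereas the RNA was from buffalo. Capitals mark a closing run of 8 A in 1 BGN probe, the only 1 of 43653 probes that ended in 8 or more A.
FN1 A_73_P102036 (chrUn.004.3:792998-793579, plus strand): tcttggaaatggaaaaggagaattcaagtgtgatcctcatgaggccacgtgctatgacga
FN1 A_73_P101421 (chrUn.004.3:786910-788065, plus strand): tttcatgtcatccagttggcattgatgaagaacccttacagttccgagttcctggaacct
THBS1 A_73_P079736 (chr10:35118411-35118470, plus strand): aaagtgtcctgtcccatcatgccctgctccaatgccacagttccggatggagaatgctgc
THBS1 A_73_P109151 (chr10:35116577-35116636, plus strand): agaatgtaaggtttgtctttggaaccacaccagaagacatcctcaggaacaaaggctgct
DCN A_73_104758 (chr5:23728761-23728820, minus strand): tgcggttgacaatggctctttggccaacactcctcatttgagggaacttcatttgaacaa
DCN A_73_P090026 (chr5:23724343-23724402, minus strand): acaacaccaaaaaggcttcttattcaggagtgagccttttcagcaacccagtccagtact
BGN A_73_P105226 (chrX:23025476-23025532, plus strand): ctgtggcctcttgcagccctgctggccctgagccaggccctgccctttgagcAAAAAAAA
The 60 bases of both FN1 probes were spread over 582 and 1156 bases of the genome, so each crossed at least 1 intron. The BGN probe with the A run covered 57 bases of the genome. In the buffalo annotation (RefSeq, NDDB_SH_1) all 8 genes were found by symbol, and LUM and DCN were direct neighbours.

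A level is a probe's log2 intensity relative to the 75th percentile of its array, and a change is the level at a time point minus that in CTR. At 30 min the change came from the authors' deposited log2 table, and the level is that change added to the level in CTR. A probe counted as detected on an array when the scanner software marked it well above background, or at 30 min when its level was at or above the highest limit of detection on any other array. A probe that was dim on 1 of the arrays compared was bounded there by the higher of its own level and the lowest level of any detected probe, and its fold is written as at least N-fold. Where such a bound fell below 1, no fold is given and the probe counted as 0 in the medians. The arrays lay on 2 slides, with CTR, 8 hours, 12 hours and 24 hours on slide 1 and 30 min, 2 hours, 4 hours and 16 hours on slide 2. A difference of slide 2 from CTR therefore holds both the slide and the heat treatment, which cannot be told apart. Apart from 30 min, the error of a change, from repeat spots of 1 probe on an array, was smallest at 8 hours (0.28) and largest at 16 hours (0.54) in log2 units. It covers the spread within an array only. The SD of CTR (0.21) stood in for that of the 30 min array, whose scanner intensities had a spot SD of 2.03. That array had 1462 outlier-marked spots, against 4 in CTR. The error at 30 min may thus be too small, and whether the deposited values share that spread was not tested. The members themselves had 1 spot each.

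The members fell into a group that was bright in CTR and a group that was dim there. In CTR 22 of 39 probes were detected, which were all 13 of FN1, all 5 of THBS1, 2 of TNC, 1 of DCN and 1 of BGN, and no probe of SPARC, LUM or FBN1. The number detected was 17 at 30 min, 23 at 2 hours, 31 at 4 hours, 22 at 8 hours, 22 at 12 hours, 32 at 16 hours and 21 at 24 hours. The arrays differed in detection as a whole, with 26.46% of all probes detected in CTR, 23.32% at 30 min, 40.17% at 2 hours, 37.55% at 4 hours, 27.79% at 8 hours, 33.43% at 12 hours, 25.46% at 16 hours and 23.17% at 24 hours. On all 8 arrays 17 of 39 were detected, and on no array 6. The increase over CTR came from DCN, SPARC and BGN at 4 hours and from DCN, SPARC and LUM at 16 hours, as the plot of levels by gene shows. Detection at 4 hours and 16 hours only was seen in 8 of the 39 member probes and in 172 of all 40284 probes outside the dark rectangle.

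**Figure D1:**
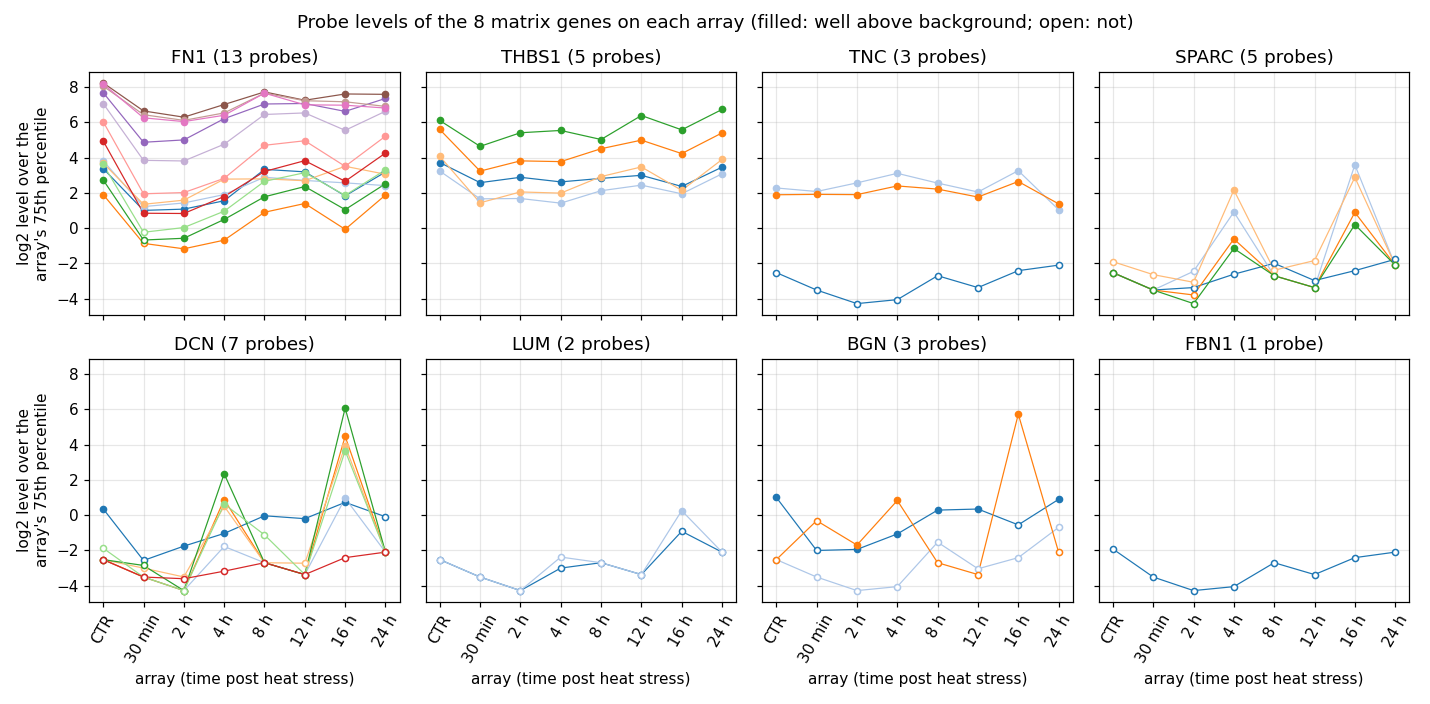
Log2 level over the array's 75th percentile (y axis) of each of the 39 probes on the 8 arrays (x axis), 1 panel per gene and 1 line per probe, with filled points where the probe was well above background and open points where it was not. FN1 and THBS1 dipped at 30 min and 2 hours, and most DCN and SPARC probes were above background at 4 hours and 16 hours only.

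At 30 min 15 of the 22 member probes tested were at least 3-fold lower than CTR and 0 were higher, against 4.62% lower and 7.6% higher among all 12221 probes tested. At 2 hours 17 of 23 were lower and 0 higher, against 7.77% and 5.34% of all probes. At 4 hours 13 of 31 were lower and 2 higher, against 5.4% and 2.67%. The split at 4 hours turned with the scaling, since with the median of each array in place of the 75th percentile 2 were lower and 9 higher. At 16 hours 6 of 33 were lower and 7 higher, against 5.43% and 5.9%. With the 75th percentile, all member probes higher at 4 hours or 16 hours were dim in CTR and were tested only because they were bright at that time. Among members detected on both arrays 0 were then higher at 4 hours and 0 at 16 hours. On slide 1, which also held CTR, 1 of 21 was lower and 0 higher at 8 hours (0.194% and 0.556% of all probes), 0 and 0 of 21 at 12 hours (0.49% and 0.163%) and 0 and 0 of 21 at 24 hours (0.664% and 0.0898%). Because 13 of the 39 probes belonged to FN1, these counts follow FN1 closely.

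The median change of the member probes tested was -2.13 at 30 min, -2.11 at 2 hours, -1.39 at 4 hours, -0.90 at 8 hours, -0.60 at 12 hours, -0.63 at 16 hours and -0.30 at 24 hours. Over all probes tested the median lay between -0.17 and 0.00 at the 7 time points. With 1 value per gene in place of 1 per probe, the median of the members was 0.17 at 4 hours and 0.86 at 16 hours, so its sign depended on the number of probes per gene. Several of these gene values came from probes dim in CTR, tested only because they were bright later, which could not give a negative change. Over probes detected on both arrays only, the median was -1.82 at 4 hours and -1.29 at 16 hours. With 16 hours in the place of CTR, which compares arrays of slide 2 only, the median was -0.98 at 30 min, -1.62 at 2 hours and -0.68 at 4 hours. Probes dim at the earlier time were tested only because they were bright at 16 hours, which set their direction. At 30 min and 2 hours these included most of the SPARC, LUM and DCN probes tested. The median of FN1, detected in CTR by all its probes, was -1.34 at 30 min, -1.49 at 2 hours and -0.63 at 4 hours. That of THBS1, also so detected, was -0.71, -0.17 and -0.16.

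**Figure D2:**
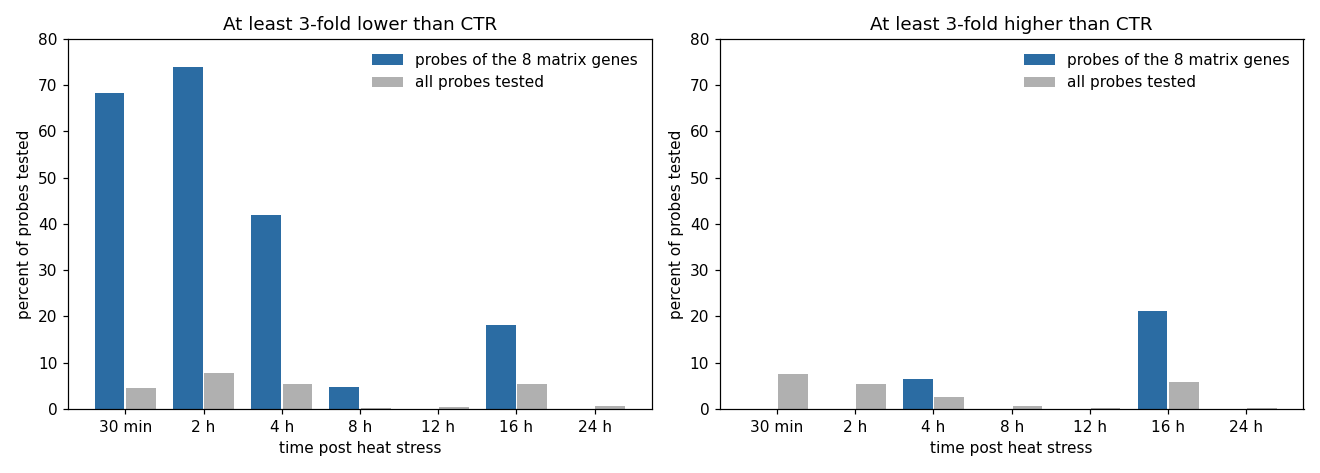
Percent of probes tested (y axis) that were at least 3-fold lower (left) or higher (right) than CTR at each time post heat stress (x axis), for the probes of the 8 matrix genes (blue) and all probes tested outside the dark rectangle (grey). The members' share of falls was 73.9% at 2 hours, and their share of rises was 21.2% at 16 hours. All member rises were of probes dim in CTR, tested only because they were bright at the later time.

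Fibronectin had the deepest falls among the members tested. The FN1 probe A_73_P102036 read 6.03 in CTR, 1.95 at 30 min, 2.02 at 2 hours, 2.82 at 4 hours, 4.69 at 8 hours, 4.95 at 12 hours, 3.50 at 16 hours and 5.21 at 24 hours. It was thus lower than CTR on all 7 heat stress arrays, by 16.9-fold at 30 min (change -4.08, error 0.30), 16.1-fold at 2 hours (-4.01, error 0.35), 9.22-fold at 4 hours (-3.21, error 0.36) and 1.76-fold at 24 hours (-0.82, error 0.36). Within slide 2 it was higher at 16 hours than at the 3 earlier times, and within slide 1 it was higher at 24 hours than at 8 hours. The FN1 probe A_73_P101421 read 4.94 in CTR, 0.85 at 30 min, 0.83 at 2 hours, 1.79 at 4 hours, 3.21 at 8 hours, 3.82 at 12 hours, 2.65 at 16 hours and 4.25 at 24 hours. It was 17.2-fold lower than CTR at 2 hours, and its fall of 3.31-fold at 8 hours was the only one past 3-fold among the members tested on slide 1.

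All 13 FN1 probes were at least 3-fold lower than CTR at 30 min and at 2 hours, 9 of 13 at 4 hours and 5 of 13 at 16 hours. The median change over the probes was -2.51 at 30 min, -2.68 at 2 hours, -1.91 at 4 hours and -1.52 at 16 hours. On slide 1 the 12 probes tested read below CTR, with medians of -0.91 at 8 hours, -0.72 at 12 hours and -0.54 at 24 hours, and 11 of 12 at 8 hours, 11 of 12 at 12 hours and 7 of 12 at 24 hours were lower by more than the error. These counts include A_73_101130 at 12 hours (change -0.83), where it was saturated, so that its level there is a lower bound and it may not have been below CTR. At the other settings tried, the median of FN1 stayed below 0 at all 7 time points, but with the 30 min scanner intensities the probes A_73_P466248 and A_73_P300226 changed by 0.24 and 0.18 at 30 min.

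The size of the fall differed along the gene by more than the error. In order from the 5′ end, the changes at 2 hours were -2.30, -2.39, -3.07, -2.10, -3.31, -3.57, -4.11, -4.01, -2.68, -3.25, -1.94, -1.94 and -2.13. The 2 probes at the 3′ end, A_73_101130 and A_73_P107871, thus fell by less than the seventh and the eighth, and since they share a run of 58 bases they are not separate measurements. The eleventh, A_73_P097426, was saturated in CTR, so that its fall is a lower bound (at least 3.84-fold at 2 hours) and has no place in this order. The 2 probes at the 3′ end were not marked saturated in CTR but read 8.04 and 8.17 there, close to its 8.23. Whether that limited their fall was not tested. A_73_P097426 was also saturated at 8 hours, 12 hours and 24 hours and was not tested there. The FN1 probe A_73_P101411, the fourth from the 5′ end, read 3.69 in CTR, 1.35 at 30 min, 1.59 at 2 hours, 2.78 at 4 hours and 3.50 at 16 hours, so that its level at 16 hours was within the error (0.54) of CTR. Whether the probes differ in their match to buffalo RNA or in the transcripts they detect was not tested.

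**Figure D3:**
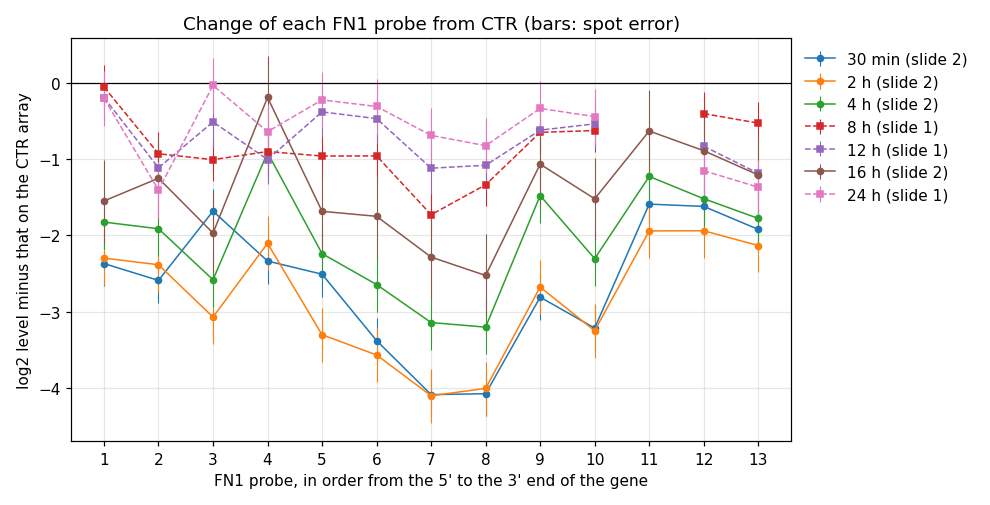
Change of each of the 13 FN1 probes from CTR (y axis, log2; vertical bars, error from the spots of 1 probe) in order from the 5′ to the 3′ end of the gene (x axis), with 1 line per time point, solid for slide 2 and broken for slide 1. The seventh and eighth probes fell most at 30 min, 2 hours, 4 hours and 16 hours, with changes near -4 at 30 min and 2 hours, and the eleventh has no value at the times when it was saturated as in CTR. At 30 min the bars use the SD of CTR in place of that array's own.

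THBS1, the trimeric glycoprotein that binds CD47 and can activate latent TGF-beta, was lower than CTR at most times, with a smaller median fall than FN1 at 30 min and 2 hours and a larger one at 8 hours. The THBS1 probe A_73_P079736 read 3.24 in CTR, 1.66 at 30 min, 1.68 at 2 hours, 1.42 at 4 hours, 2.12 at 8 hours, 2.44 at 12 hours, 1.95 at 16 hours and 3.08 at 24 hours. It was 3.52-fold lower than CTR at 4 hours (change -1.82, error 0.36) and within the error at 24 hours (-0.16, error 0.36). The probe A_73_P109151 read 3.72 in CTR, 2.58 at 30 min, 2.88 at 2 hours, 2.62 at 4 hours, 2.82 at 8 hours, 2.99 at 12 hours, 2.36 at 16 hours and 3.46 at 24 hours. It did not pass 3-fold at any time, and it too was within the error of CTR at 24 hours.

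Of the 5 THBS1 probes, 2 were at least 3-fold lower at 30 min, 2 at 2 hours, 3 at 4 hours and 1 at 16 hours, and none at 8 hours, 12 hours or 24 hours. All 5 lay below CTR at 30 min, 2 hours, 4 hours, 8 hours and 16 hours. The median change was -1.57 at 30 min, -1.55 at 2 hours, -1.82 at 4 hours, -1.09 at 8 hours, -0.60 at 12 hours, -1.35 at 16 hours and -0.18 at 24 hours. With the 30 min scanner intensities the median at 30 min was -4.29 for THBS1 and -2.33 for FN1. At 8 hours, on the slide of CTR, the 5 probes ranged from -1.15 to -0.90, less than the error of 0.28 from one another. The THBS1 probe left out with the dark rectangle, A_73_113544, changed by 0.07 at that time. The largest fall was that of A_73_P109141, from 4.07 in CTR to 1.44 at 30 min (6.20-fold). The probe nearest the 3′ end of those kept, A_73_P250641, read 6.10 in CTR and 6.72 at 24 hours, 0.62 higher where the other 4 were 0.16 to 0.26 lower.

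TNC, a glycoprotein of wounds, tumours and the developing gland, did not pass 3-fold at any time in the values used here. The TNC probe A_73_P347831 read 2.28 in CTR, 2.08 at 30 min, 2.57 at 2 hours, 3.11 at 4 hours, 2.55 at 8 hours, 2.05 at 12 hours, 3.26 at 16 hours and 1.05 at 24 hours. The probe A_73_108252 read 1.89 in CTR, 1.91 at 30 min, 1.90 at 2 hours, 2.39 at 4 hours, 2.21 at 8 hours, 1.76 at 12 hours, 2.64 at 16 hours and 1.38 at 24 hours. Both were highest at 16 hours (changes 0.98 and 0.75, error 0.54) and lowest at 24 hours (-1.23 and -0.52, error 0.36), when the TNC median of -0.87 was below those of FN1 (-0.54) and THBS1 (-0.18). Their median change was 0.30 at 8 hours and -0.18 at 12 hours, and at 12 hours and 30 min, where it was -0.09, its sign changed with the scaling. With the 30 min scanner intensities it was 2.25 at 30 min. The third TNC probe, A_73_P308266, was dim on all 8 arrays.

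The proteoglycan decorin appeared on 2 arrays only for most of its probes. The DCN probe A_73_104758 was dim in CTR, at 30 min, 2 hours, 8 hours, 12 hours and 24 hours, and read 0.88 at 4 hours and 4.47 at 16 hours. It was at least 33.2-fold higher than CTR at 16 hours and at least 2.77-fold higher at 4 hours. The DCN probe A_73_P090026 was dim on the same 6 arrays and read 0.50 at 4 hours and 3.92 at 16 hours, at least 22.8-fold higher than CTR at 16 hours. The largest value was that of A_73_P099601, which read 2.34 at 4 hours and 6.06 at 16 hours, at least 7.63-fold and at least 101-fold higher than CTR. A_73_P452541 read 0.63 at 4 hours and 3.64 at 16 hours and was at least 18.8-fold higher at 16 hours, A_73_P099741 was detected at 16 hours only (0.96), and A_73_P040326 was dim on all 8 arrays.

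The signal of these DCN probes was seen at 4 hours and 16 hours, both on slide 2, and on no array of slide 1. Its difference from CTR therefore cannot be told apart from a difference of slide. Of the 4 arrays of slide 2, 30 min and 2 hours were dim for these probes and 4 hours and 16 hours were bright, and the detection limit at 2 hours (-2.24) was the lowest of all arrays. Within slide 2 the 6 DCN probes detected at 16 hours had a median difference of -6.03 between 2 hours and 16 hours and of -3.22 between 4 hours and 16 hours. All but A_73_111861 were dim at 2 hours and entered that comparison through the array on which they were bright, so its direction was set by the choice of probes.

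The DCN probe nearest the 5′ end, A_73_111861, went against the others. It read 0.36 in CTR, -1.75 at 2 hours, -1.04 at 4 hours, -0.03 at 8 hours, -0.20 at 12 hours and 0.72 at 16 hours, and was dim at 30 min and 24 hours. It was thus detected in CTR where the other 6 were dim, was 4.32-fold lower at 2 hours, and differed from CTR by less than the error at 16 hours (0.37, error 0.54). Which of the 2 patterns stands for DCN RNA was not tested.

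SPARC, a calcium- and collagen-binding glycoprotein, followed the main DCN pattern. The SPARC probe A_73_105991 was dim on 6 arrays and read 2.16 at 4 hours and 2.88 at 16 hours, at least 6.73-fold and at least 11.1-fold higher than CTR. A_73_P300606 read 0.92 at 4 hours and 3.59 at 16 hours, at least 2.84-fold and at least 18.1-fold higher. A_73_P364561 and A_73_P471813 were detected at the same 2 times, at -0.61 and -1.15 at 4 hours, which lay below the detection limit of CTR (-0.59), and at 0.90 and 0.20 at 16 hours. The fifth probe, A_73_P326441, was dim on all 8 arrays. A_73_P300606 and A_73_P364561 share a run of 24 bases.

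The 3 probes of biglycan disagreed. The BGN probe A_73_104688 was dim in CTR, at 30 min, 8 hours, 12 hours and 24 hours, and read -1.69 at 2 hours, 0.83 at 4 hours and 5.72 at 16 hours, at least 79.3-fold higher than CTR at 16 hours. The BGN probe with the A run, A_73_P105226, read 1.01 in CTR, -1.94 at 2 hours, -1.06 at 4 hours, 0.29 at 8 hours, 0.35 at 12 hours and 0.90 at 24 hours, and was dim at 30 min and 16 hours. It was 7.70-fold lower than CTR at 2 hours and at least 2.57-fold lower at 16 hours, when A_73_104688 was at its highest. The BGN probe A_73_P298381 was dim on all 8 arrays. A median over the BGN probes therefore describes neither, and the part of the A run in the signal of A_73_P105226 was not tested.

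LUM and FBN1 were near or below detection. The LUM probe A_73_100839 was detected at 16 hours only, at 0.26, at least 1.80-fold higher than CTR, and A_73_P237970 was dim on all 8 arrays. The single FBN1 probe was dim on all 8 arrays, so nothing can be said of microfibril RNA beyond these detection limits.

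The arrays on which the members moved also carried other changes in marker genes, and in cultured cells fewer cells of a type and less RNA per cell cannot be told apart. Of 42 probes for 10 fibroblast markers, between 8 and 10 were detected on 6 arrays, 14 at 4 hours and 22 at 16 hours. Their summed level, as a multiple of the 75th percentile, ranged from 311 to 539 on the heat stress arrays and was 542 in CTR, with 311 at 4 hours and 539 at 16 hours. Among the single genes, the brightest COL1A2 probe was dim in CTR and read 2.93 at 16 hours, that of COL3A1 was dim in CTR and read 2.56 at 16 hours, and those of PDGFRA (0.09), THY1 (0.43) and FAP (0.42) were detected at 16 hours only, whereas PDGFRB was dim on all 8 arrays. The brightest probes of the list went the other way, with VIM at 7.47 in CTR, 5.64 at 4 hours and 5.92 at 16 hours and ACTA2 at 7.40, 6.39 and 6.99. S100A4 read 3.28 in CTR and was higher on all 4 arrays of slide 2 (5.74 to 6.98). Of 16 probes for 6 endothelial markers 0 were detected in CTR, at 8 hours, 12 hours or 24 hours, 1 at 30 min, 2 at 2 hours, 3 at 4 hours and 4 at 16 hours, with summed levels between 0.00 and 17.5. The brightest CLDN5 probe was dim in CTR and read 2.92 at 16 hours, and CLDN5 had 2 of 3 probes detected at 4 hours and at 16 hours only, as for most DCN probes. VWF read 1.88 at 30 min and PECAM1 was detected at 16 hours only (-0.06), while CDH5, KDR and TEK were detected on no array. The part of these genes in the DCN, SPARC and BGN signal at 4 hours and 16 hours was not tested.

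**Figure D4:**
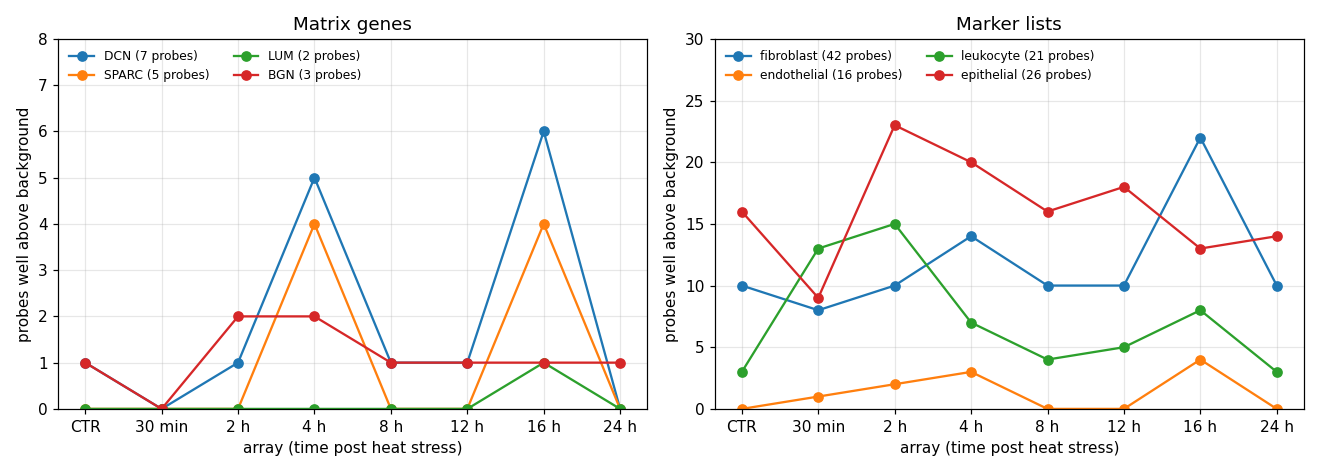
Number of probes well above background (y axis) on each array (x axis) for DCN, SPARC, LUM and BGN (left) and for the marker lists of 4 cell types (right), with the number of probes of each in the legend. DCN and SPARC peaked at 4 hours and 16 hours, when 14 and 22 fibroblast probes were detected, and leukocyte probes peaked at 30 min and 2 hours.

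Leukocyte markers moved at the times when FN1 was lowest. Of 21 probes for 9 leukocyte markers 3 were detected in CTR, 13 at 30 min, 15 at 2 hours, 7 at 4 hours, 4 at 8 hours, 5 at 12 hours, 8 at 16 hours and 3 at 24 hours. Their summed level was 12.7 in CTR, 254 at 30 min, 175 at 2 hours, and between 9.11 and 30.6 at the other times. CD14, the monocyte receptor for lipopolysaccharide, was dim in CTR and read 4.54 at 30 min and 4.11 at 2 hours, while ITGAM was dim on all 8 arrays. CD79A went the other way, at 1.01 in CTR and -0.34 at 2 hours, and was dim at 30 min. The summed level of the 12 epithelial markers (26 probes) was 712 in CTR, 240 at 30 min, 255 at 2 hours, 360 at 4 hours and 520 at 16 hours, and between 521 and 582 at the other times. The number of epithelial probes detected ranged from 9 at 30 min to 23 at 2 hours. Of the 12 epithelial genes 10 were detected in CTR, among them KRT5 (7.91), KRT19 (7.07), KRT8 (6.99), KRT7 (5.67) and KRT14 (5.57). KRT18, whose protein the study stained in these cultures, had 0 of 3 probes detected in CTR. The part of these changes in the fall of FN1 and THBS1 was not tested.

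Other matrix genes were taken from lists of the pathway, and their counts stand beside shares over all probes tested of 4.62% lower and 7.6% higher at 30 min, 7.77% and 5.34% at 2 hours, 5.4% and 2.67% at 4 hours, and 5.43% and 5.9% at 16 hours. Of the other matrix glycoproteins (laminins, fibulins, matrilins and others, 115 probes of 50 genes), 12 of 23 probes tested were at least 3-fold lower and 2 higher at 30 min, 15 of 26 and 3 at 2 hours, 12 of 29 and 3 at 4 hours, and 7 of 33 and 8 at 16 hours. Their median change was -1.78 at 30 min and -2.06 at 2 hours, and at 8 hours, 12 hours and 24 hours only 1 of 22, 0 of 22 and 0 of 21 were lower. LAMB3, a chain of the epithelial laminins, changed by -3.25 at 2 hours and by -3.24 at 16 hours, and CYR61, a matricellular immediate early gene, by -2.95 at 2 hours. SPP1, the milk glycoprotein osteopontin, lay between -0.21 and 0.34 at all times, and LAMA5 between -1.50 and 0.36.

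Of the other proteoglycans (63 probes of 30 genes), 0 of 11 probes tested were lower and 3 higher at 30 min, 1 of 15 and 2 at 2 hours, 1 of 15 and 2 at 4 hours, and 0 of 15 and 3 at 16 hours, with 0 past 3-fold at 8 hours, 12 hours and 24 hours. Their median change was 0.00 at 2 hours and 0.68 at 16 hours. Among the 6 probes detected on all 8 arrays, the highest by median change was SDC4, a heparan sulfate proteoglycan of the cell surface, which changed by 1.39 at 2 hours and by 1.69 at 16 hours, and SPOCK1 changed by 1.45 at 16 hours. SDC1 (-0.83 to -0.24) and GPC1 (-0.75 to 0.12) were the lowest of these 6.

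Of the receptors for these proteins (54 probes of 23 genes), 5 of 25 were at least 3-fold lower and 1 higher at 30 min, 8 of 27 and 1 at 2 hours, 2 of 33 and 1 at 4 hours, and 4 of 27 and 1 at 16 hours, so that the share lower at 4 hours was near that of all probes. ITGB1 and ITGAV, subunits of integrins that bind fibronectin, changed by -1.99 and -1.97 at 2 hours and by -1.38 and -1.88 at 16 hours. CD47, the receptor of THBS1, changed by 0.19 at 2 hours, and ITGB4, a subunit of the laminin receptor of hemidesmosomes, by -0.51 at 2 hours and 0.75 at 8 hours. Of the TGF-beta genes (27 probes of 14 genes), 1 of 9 was lower at 30 min, 2 of 15 at 2 hours, 3 of 16 at 4 hours and 2 of 10 at 16 hours, and 0, 0, 1 and 1 were higher. INHBA changed by -1.83 at 16 hours and TGFBR2 by -0.96 at 2 hours. No probe of the receptors or of the TGF-beta genes passed 3-fold at 8 hours, 12 hours or 24 hours. The reference genes of the study (RPL4, EEF1A1 and RPS23, 17 probes) had medians between -0.54 and -0.15. Among them EEF1A1 changed by 0.25 to 0.80, and 3 probes of RPL4 by -2.39, -0.70 and 0.04 at 4 hours.

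The 22 member probes detected in CTR and on at least 5 arrays had a mean centred level of 1.15 in CTR, -1.21 at 30 min, -1.05 at 2 hours, -0.50 at 4 hours, 0.40 at 8 hours, 0.51 at 12 hours, 0.04 at 16 hours and 0.66 at 24 hours. Most of these probes belonged to FN1. Among 8834 other named probes with the same detection, those with the highest Pearson's r to this profile over the 8 arrays were NUMA1 (0.99), ANXA3 (0.99), ARHGAP27 (0.99), ZDHHC24 (0.99) and LTBP1 (0.99), given as a description of 8 arrays that include the difference between the slides. LTBP1, the latent TGF-beta binding protein of the matrix, changed by -2.96 at 30 min, -2.48 at 2 hours, -1.85 at 4 hours and -1.49 at 16 hours.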

How the data were processed

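Buffalo MECs were measured on 8 bovine arrays with 1 colour. Per the file headers, the deposited intensity per spot came from Feature Extraction 9.5.3.1 with spatial trends removed, and a second deposited table held the authors' log2 values, made in GeneSpring GX and normalized to the 75th percentile and centred per probe. These log2 values served for 30 min, where the scanner intensity departed from them. Each array's 75th percentile over 43803 spots outside the controls was subtracted from the log2 intensity, and outlier-marked spots were dropped. Changes of 3-fold from CTR were counted, with bounds for dim probes, and no test was made. The counting was tested on simulated data. The members, lists and alternatives were chosen with earlier results of these data known. Named were all members, the 2 lowest and 2 highest probes of each list by median change among those detected on all arrays, and the 5 probes most alike, except 1 gene of the TGF-beta list that is not reported here. The number of arrays limits the precision. Python 3.11.15 and limma 3.58.1 (normexp with an offset of 50) were used.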

Additional observations from a re-analysis of the deposited data

Results flagged for a closer look

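Some probes in the dark rectangle of the control array, which no comparison used, gave signal at 4 hours or 16 hours. The DCN probe A_73_P473523 was dim in CTR and read -0.39 at 4 hours and 2.77 at 16 hours, and the DCN probe A_73_P100076 was dim in CTR and read 1.53 at 16 hours. A_73_P473523 was bright at 4 hours and 16 hours, as most other DCN probes were, whereas A_73_P100076 was bright at 16 hours only, as A_73_P099741 was. The other arrays of slide 1 were dim for both as well. The TNC probe A_73_P041901 was dim in CTR and read 1.00 at 4 hours and 1.30 at 16 hours. It was detected on all 7 heat stress arrays, between 0.53 and 1.30. Their level in CTR cannot be told apart from the dark region.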

How the results depend on the processing

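Each condition had 1 array, so no replicate could be left out, bounds rest on the detection limit of each array, and the probes were bovine. No paired analysis was possible because no condition had a second array. The deposited log2 values at every time point changed no member call, and keeping outlier-marked spots could not, since 0 member spots were so marked on the arrays read from the scanner. The 75th percentile over probes bright on all 8 arrays and quantile normalization kept all counts within 1.5 times. Scaling to the median subtracts from each change the shift of the median of all probes, which ran from -1.09 (4 hours) to 0.42 (24 hours). The cause of the changes below was not tested. With the median of each array the members at least 3-fold lower numbered 9 at 30 min, 10 at 2 hours, 2 at 4 hours, 0 at 8 hours and 3 at 24 hours, those higher 9 at 4 hours, and the median change was -1.38 at 30 min, -1.41 at 2 hours, -0.30 at 4 hours and -0.73 at 24 hours. With normexp 9 were lower at 2 hours, 5 at 4 hours, 0 at 8 hours and 3 at 16 hours, and the median was -1.33 at 2 hours, -0.76 at 4 hours and -0.18 at 12 hours. With 1 value per gene the genes lower numbered 1 at 30 min, 2 at 2 hours, 2 at 4 hours, 0 at 8 hours and 0 at 16 hours, those higher 0 at 4 hours and 3 at 16 hours, and the median was -0.78 at 30 min, -1.55 at 2 hours, 0.17 at 4 hours and 0.86 at 16 hours. Keeping only probes detected on both arrays removes the bounds of dim probes but not those of probes saturated on 1 array. With these, 0 were higher at 4 hours and 0 at 16 hours, and the median was -1.82 at 4 hours, -1.29 at 16 hours and, for DCN (1 probe), -1.39 at 4 hours. At 2-fold 7 were higher at 4 hours, and 7 were lower at 8 hours, 5 at 12 hours, 15 at 16 hours and 4 at 24 hours. With the dark rectangle kept the median at 30 min was -1.80. With 16 hours in place of CTR it was -0.98 at 30 min, -1.62 at 2 hours and -0.68 at 4 hours. Probes dim at the earlier time entered that comparison through 16 hours, so their direction was set in advance. With the 30 min scanner intensities 1 member was higher at 30 min, and the FN1 probes A_73_P466248 and A_73_P300226 changed by 0.24 and 0.18 there in place of -2.37 and -1.68, with medians of -4.29 for THBS1 and 2.25 for TNC. The BGN median at 30 min was 0.21 with normexp and 0.016 with the median of each array.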
